A study of Mus musculus with 24 samples.

Results

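Lgals3bp, the gene of galectin-3-binding protein, was followed in microglia sorted from mouse brain. It was taken by its Entrez identifier, 19039, and was 1 of 15878 genes with values in the count table. It was selected on its measured level in these libraries, which differed between the groups, so its group levels are given as a description with no test. Tests were kept to what that choice did not use: the differences between libraries of the same group, and the group differences of other genes. For genes that vary with Lgals3bp between libraries, the group differences are still not independent of that choice.

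All mice carried the wild-type (WT) genotype, and all libraries are from day 28. The 4 groups held 6 libraries each: Sham + PBS (a mock operation and saline), BCAS + PBS, BCAS + ND-Exos and BCAS + WD-Exos. BCAS commonly stands for bilateral carotid artery stenosis, in which both carotid arteries are narrowed and blood flow to the forebrain is lowered. Per the labels' protocols, exosomes (small vesicles that cells release) were given to BCAS mice through the tail vein in doses of 100 µg, 1 dose every 3 days; the title of the series names foam cells, which are lipid-laden macrophages, as their source. The labels do not spell out ND and WD, give no age, and do not state whether each sample is a different mouse. A p-value therefore reflects only how much these samples vary, which may be technical. The groups are called Sham, BCAS, ND-Exos and WD-Exos from here on, and the BCAS operation is shared by all but Sham.

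Galectin-3-binding protein is a heavily glycosylated secreted protein with a scavenger receptor cysteine-rich domain. It binds galectins, a family of lectins that recognise galactose-bearing sugars, and proteins of the extracellular matrix. In mouse it is also known as cyclophilin C-associated protein, after a partner encoded by Ppic. Its transcript is induced by interferons, the secreted signals of antiviral defence. These act through receptors (Ifnar1, Ifnar2), kinases of the JAK family and transcription factors such as Stat2 and Irf9, which bind interferon-stimulated response elements before the start of their target genes.

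Lgals3bp lies on the minus strand at chr11:118392747-118401959 (GRCm38.p6, RefSeq), a span of 9213 bases, and its longest transcript in GENCODE vM21 has 2330 bases. The 250 bases before its start, at chr11:118401960-118402209 on the minus strand, are shown because 49 of 52 tested interferon-stimulated genes had a positive r with it within groups, as described further on. Those of Bst2, at chr8:71537473-71537722 on the minus strand, are shown for comparison. Bst2 encodes tetherin, an interferon-induced membrane protein that holds budding virus at the cell surface. Both are from RefSeq (GRCm38.p6), 5′ to 3′ in the direction of the gene. Capitals mark the letters AANNGAAA, or the longer run GAAA, any 2 bases, GAAA, on either strand.
Lgals3bp: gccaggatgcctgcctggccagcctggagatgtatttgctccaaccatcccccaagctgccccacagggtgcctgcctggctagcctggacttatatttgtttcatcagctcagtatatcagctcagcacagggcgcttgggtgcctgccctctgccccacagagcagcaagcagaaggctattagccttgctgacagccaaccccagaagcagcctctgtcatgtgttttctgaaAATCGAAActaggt
Bst2: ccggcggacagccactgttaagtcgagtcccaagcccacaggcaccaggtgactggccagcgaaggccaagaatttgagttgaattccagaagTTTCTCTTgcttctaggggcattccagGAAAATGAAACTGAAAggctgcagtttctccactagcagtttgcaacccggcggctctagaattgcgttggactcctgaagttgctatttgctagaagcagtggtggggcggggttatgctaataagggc

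The core of the interferon-stimulated response element, GAAA followed by any 2 bases and GAAA again, was searched on both strands. It occurred in 978 of 32851 RefSeq windows of this length (2.98%) and was not in the Lgals3bp window. The 8 letters AANNGAAA, which every such core contains and which were added after the Lgals3bp sequence had been seen, occurred in 6999 windows (21.31%). Lgals3bp held them once, at bases -14 to -7 counted from its start. Neither TTCNNNGAA, a STAT site core (7.02% of windows), nor an NF-kB site, GGGA, any base and TTTCC (0.36%), was found there. Counted by gene, with a match in any of its windows, 18 of the 42 interferon-stimulated genes with a promoter in the table held the full core and 29 held AANNGAAA. Over all genes the shares were 3.46% and 23.93%. Of the 10 genes most like Lgals3bp, described further on, 8 had a promoter in the table. Of these, 2 held the full core and 6 held AANNGAAA. Windows without a match, such as those of Nucb1 and Ifitm3, are not shown. The class I genes H2-D1 and H2-K1 held only the 8 letters. The galectin gene Lgals9 held the full core, and the 8 letters again at bases -151 to -144. The windows of these genes are shown around a match, since they are described with Lgals3bp further on. The 250 bases these windows were cut from are at chr17:35262844-35263093 on the plus strand (H2-D1), chr17:34000348-34000597 on the minus strand (H2-K1) and chr11:78984925-78985174 on the minus strand (Lgals9), all GRCm38.p6.
H2-D1, bases -150 to -143: ctcctcagTTTCACTTctgcacct
H2-K1, bases -90 to -83: ctccacagTTTCACTTctgcacct
Lgals9, bases -55 to -46: acatcagcTTTCTTTTTCtctagaca
These matches describe the letters only; binding was not measured.

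The cells were microglial by their transcripts in all 24 libraries: the purinergic receptor P2ry12 ranged from 2966 to 7479 CPM (reads of a gene relative to the library's total, corrected by TMM factors), Tmem119 from 624.8 to 2946 and the fractalkine receptor Cx3cr1 from 2915 to 6538. Library totals were 24277722 to 28892423 counts. Between 8515 and 10794 genes had a count in a library, and no library lacked counts of Lgals3bp, which ranged from 7549 to 85251.

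Lgals3bp was high in microglia of every group and lowest with ND-Exos. In Sham the lowest, median and highest of the 6 libraries were 331.8, 634.6 and 813.6 CPM, a mean of 605.6 ± 199.2 (SD, n = 6). In BCAS they were 589.7, 1297 and 1951 CPM, a mean of 1303 ± 526. With ND-Exos they were 288.7, 351.6 and 583.6 CPM, a mean of 380 ± 112.6. The highest ND-Exos library therefore lay under the lowest BCAS library, if narrowly. With WD-Exos they were 923.3, 1509 and 3281 CPM, a mean of 1719 ± 830.6. The highest WD-Exos library, replicate 4, stood far above the other five, which reached 1867 CPM.

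**Figure D1:**
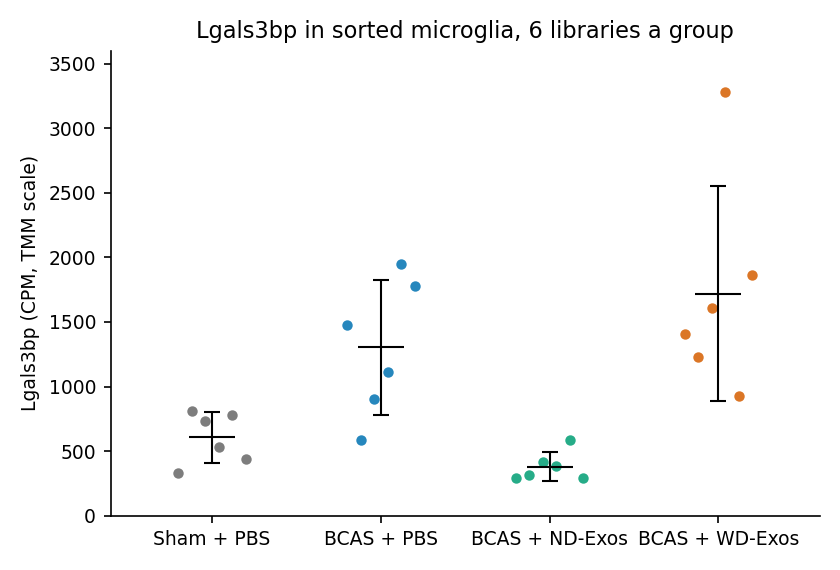
Level of Lgals3bp (CPM on the TMM scale, vertical axis) in each library (points) of the 4 groups, with the mean (long line) and SD (whiskers) of 6 libraries. The 6 ND-Exos libraries, at 288.7 to 583.6 CPM, lie below all BCAS and all WD-Exos libraries, and WD-Exos replicate 4 stands at 3281 CPM.

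In order of mean level the groups ran ND-Exos, Sham, BCAS, WD-Exos. BCAS was 2.15-fold higher than Sham (log2 fold change 1.10, SE 0.29), and 5 of its 6 libraries lay above every Sham library. ND-Exos was 3.43-fold lower than BCAS (-1.78, SE 0.30), with 6 of 6 libraries below every BCAS library. WD-Exos was 4.52-fold higher than ND-Exos (2.18, SE 0.30) and 2.84-fold higher than Sham, with 6 of 6 libraries above in each case. ND-Exos and Sham, and BCAS and WD-Exos, each neighbours in the order, were closer. WD-Exos and BCAS differed by 416.3 CPM, less than the SD of WD-Exos (log2 fold change 0.40, SE 0.29), and only 1 WD-Exos library lay above every BCAS library; without WD-Exos replicate 4 the log2 difference was 0.12. ND-Exos minus Sham was -225.6 CPM against an SD of 199.2 in Sham (log2 fold change -0.67, SE 0.29). Of 6 ND-Exos libraries, 3 lay below every Sham library. In sorted bulk samples, fewer cells with the transcript and less of it per cell cannot be told apart.

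Separation of this kind was rare among the 10219 genes tested. Every BCAS library above every Sham library was seen for 0.127% of genes, every ND-Exos library below every BCAS library for 0.0881%, and every WD-Exos library above every ND-Exos library or above every Sham library for 0.294% in each case. ND-Exos below both BCAS and WD-Exos in every library held for 0.0196% (2 genes, Lgals3bp and the zinc finger gene Zfp444). With WD-Exos also above Sham it held for 0.00979%, which is Lgals3bp alone. The gene was chosen for these differences, so nothing is read from these counts.

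Per kilobase of its longest transcript, Lgals3bp was among the most abundant transcripts of these cells. Among 15304 genes with a length it ranked 253 in Sham, 112 in BCAS, 381 in ND-Exos and 81 in WD-Exos. Its level was 259.9, 559.1, 163.1 and 737.7 CPM per kilobase in that order, against 815.2, 1062, 1034 and 1070 for Cx3cr1. The level therefore approached that of Cx3cr1 most with WD-Exos.

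Libraries of the same group also differed in Lgals3bp. The highest library exceeded the lowest 2.45-fold in Sham, 3.31-fold in BCAS, 2.02-fold in ND-Exos and 3.55-fold in WD-Exos. On the log2(CPM + 1) scale the pooled SD within groups was 0.56. Among 213 genes with a mean of 500 to 2000 CPM the median SD was 0.30, and 14 of them (6.6%) varied more than Lgals3bp. This variation was used to find the genes that follow it. Likeness was Pearson's r of log2(CPM + 1) with the mean of each group removed, over the 24 libraries, among 4236 genes with a count in every library and a mean of at least 20 CPM. With group means removed, the group differences that chose the gene play no part in r.

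Among the 20 genes most like Lgals3bp, 3 were on the list of interferon-stimulated genes, of 26 that could be chosen, and 4 on that of class I presentation, of 19. Shisa5, a membrane protein gene of the endoplasmic reticulum that is on no list, had r = 0.73 and Bst2 had r = 0.73. The class I heavy chain genes H2-D1, H2-K1 and H2-T23, whose products show peptides to T cells or natural killer cells, had r = 0.70, 0.69 and 0.67. Ifitm3, which blocks virus entry from endosomes, had r = 0.67, and Ly6a, an interferon-responsive surface protein gene also known as Sca-1, had r = 0.68. Bcl2l1, which encodes the survival protein Bcl-xL, had r = 0.72, and Nucb1, a calcium-binding protein gene of the Golgi, had r = 0.71; neither is on a list. Within the single groups r was positive in all 4 for 9 of these 10 genes. H2-D1, H2-K1 and H2-T23 have close paralogues among which reads can be split, so their values are uncertain.

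Single libraries show where these genes ran with Lgals3bp and where they did not. In BCAS, replicate 2 was lowest in Lgals3bp (589.7 CPM) and had 49.67 CPM of Bst2, 288.7 of Shisa5 and 2174 of H2-D1. Each of these was the lowest value of its gene in BCAS. BCAS replicate 5 was highest in Lgals3bp, at 1951 CPM, but replicate 6, at 1780, had 366.4 CPM of Bst2 and 6160 of H2-D1, the highest of the group. WD-Exos replicate 4, at 3281 CPM of Lgals3bp, had 742.8 CPM of Shisa5, the highest of all 24 libraries. Its Bst2, at 377.2 CPM, was below that of WD-Exos replicate 6, at 451.6. Replicate 6, with the second highest Lgals3bp of its group (1867 CPM), had the lowest H2-D1 (1726 CPM) and the lowest H2-K1 (918.3 CPM) of the WD-Exos libraries.

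**Figure D2:**
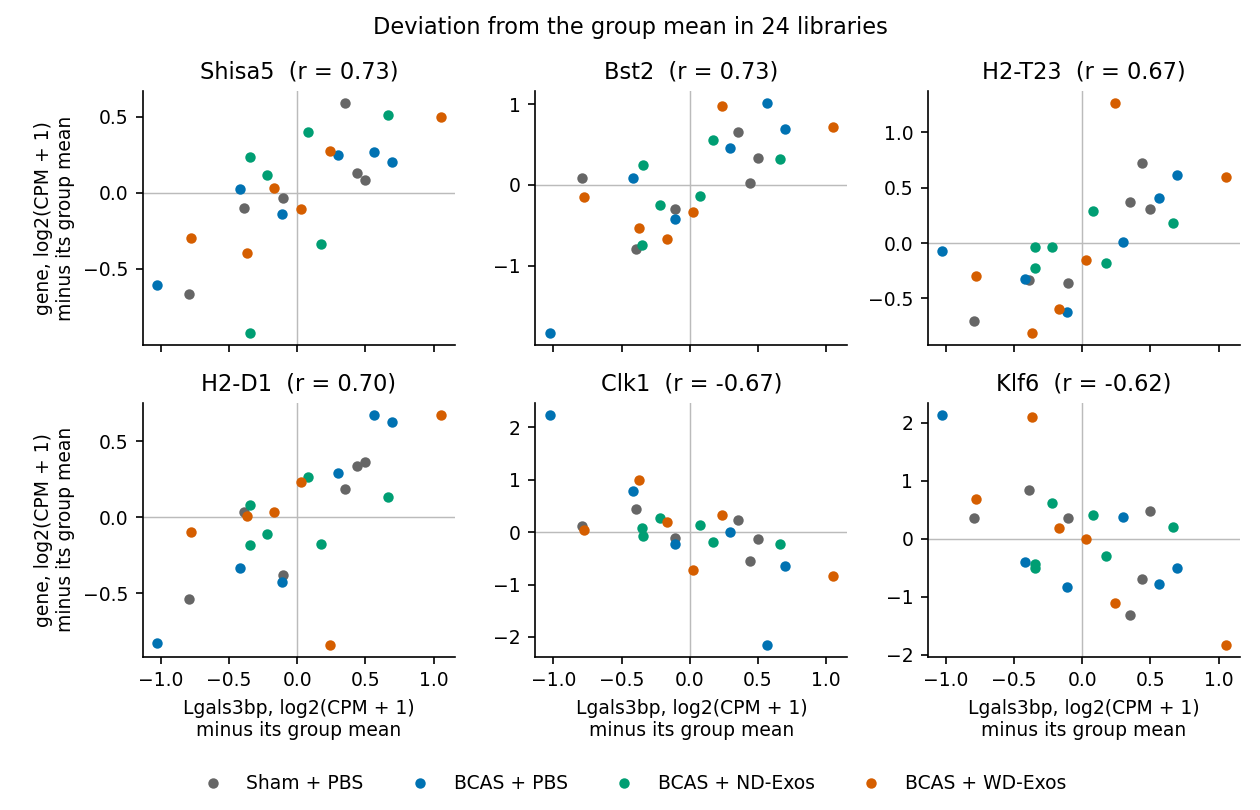
Each point is a library, coloured by group; both axes give log2(CPM + 1) minus the mean of the library's group, for Lgals3bp (horizontal) and 1 gene per panel (vertical). Shisa5, Bst2, H2-T23 and H2-D1 run with Lgals3bp (r = 0.67 to 0.73), Clk1 and Klf6 run the other way (r = -0.67 and -0.62), and BCAS replicate 2 is the point farthest left.

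At the other end were Nrros (r = -0.68), which regulates reactive oxygen and the activation of TGF-beta in microglia, Clk1 (-0.67), a kinase of splicing factors, Ddx5 (-0.66), an RNA helicase, Ptrh2 (-0.64), a mitochondrial peptidyl-tRNA hydrolase, and Klf6 (-0.62), an inducible transcription factor. Within groups, r was negative in all 4 for Clk1, Ddx5 and Ptrh2. Lgals3bp deviated most from its group mean in WD-Exos replicate 4 (1.05 on the log2 scale) and BCAS replicate 2 (-1.03). Without these 2 libraries, r was -0.40 for Ddx5 and -0.31 for Klf6.

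The slope of each gene on Lgals3bp within groups was tested over 10218 genes with edgeR's quasi-likelihood test. None passed a Benjamini-Hochberg adjusted p of 0.05 (0% called), 456 had an unadjusted p below 0.05, and 0.227 was the lowest adjusted value. In the same model 26 genes were called by DESeq2 and 1 by limma voom. For H2-D1 the slope was 0.57 log2 units per log2 unit of Lgals3bp (SE 0.12, edgeR adjusted p = 0.227). Bst2 had a slope of 0.85 (SE 0.20, edgeR adjusted p = 0.237). Likeness to Lgals3bp is thus given by r and by its sign in each group, not by a call.

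Signalling genes of the interferon pathway had no common sign as a list. Of 19 tested genes of interferon receptors and JAK-STAT signalling, 12 had a positive r, with a median of 0.03. Over all tested genes 47.7% had a positive r and the median was -0.01. The receptor chains of type I interferon had r = -0.48 (Ifnar1) and -0.15 (Ifnar2); for Ifnar1 the value was -0.18 without the WD-Exos libraries. Irf9 had r = 0.01 and Stat2 0.46.

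Targets of interferon had mostly positive values. Of 55 interferon-stimulated genes on the list, 53 had values and 52 were tested; 49 of these had a positive r, with a median of 0.39, and 25 lay above the 95th percentile of all tested genes (0.40). The median was positive in each group, at 0.34 in Sham, 0.45 in BCAS, 0.30 in ND-Exos and 0.59 in WD-Exos. Isg15, a ubiquitin-like modifier, had r = 0.73, though with 0.3983 CPM or less in every ND-Exos library. Irf7, the factor that amplifies the type I interferon response, had r = 0.64, and Oasl2, of the oligoadenylate synthetase family, had r = 0.64. Rtp4 and the deconjugating enzyme Usp18 both had r = 0.43. Ifit3, an RNA-binding antiviral protein, had r = 0.40 and Ifi27l2a, a small mitochondrial protein, 0.35. The T cell attractant Cxcl10 had r = 0.02 at a level of 20.78 CPM or less. The highest r of the list was 0.77 for Slfn5, which missed the floor on level or detection for the genes most like Lgals3bp.

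Genes of class I presentation also had mostly positive values, in 3 groups of 4. Of 23 tested, 20 had a positive r, with a median of 0.37; by group the median was 0.47, 0.39, -0.02 and 0.43 in the order Sham, BCAS, ND-Exos and WD-Exos. B2m, the light chain of class I molecules, had r = 0.41, the immunoproteasome subunit Psmb8 0.45 and the peptide transporter Tap1 0.24. Of 18 tested GTPases of the gamma-interferon response and MHC class II genes, 17 had a positive r, with a median of 0.27.

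**Figure D3:**
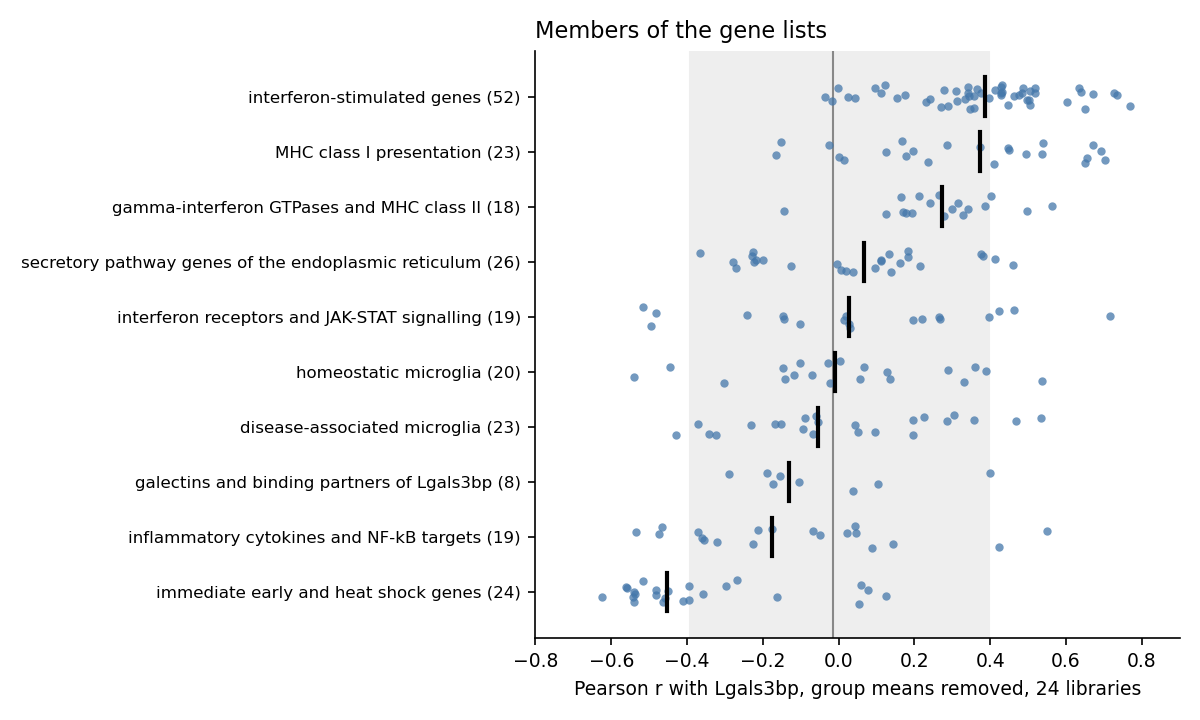
Pearson r with Lgals3bp (group means removed, 24 libraries, horizontal axis) of every tested member of 10 gene lists (points; number tested in brackets), with the median of each list (black bar), the median of all tested genes (grey line, -0.01) and their 5th to 95th percentile (grey band). The interferon-stimulated list has its median at 0.39 and the immediate early list at -0.45.

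Genes that respond within minutes to stimulation ran the other way. Of 24 tested immediate early and heat shock genes, 20 had a negative r, with a median of -0.45, and 16 lay below the 5th percentile of all genes (-0.39). They include Fos (r = -0.54), Jun (-0.48) and Egr1 (-0.54), transcription factors that are also known to be induced during tissue dissociation. The tested heat shock genes of the list had weaker values, r = -0.268 to 0.126. The median by group was -0.06 in Sham, -0.70 in BCAS, -0.19 in ND-Exos and -0.49 in WD-Exos. It was -0.17 without WD-Exos replicate 4 and BCAS replicate 2. The mean log2(CPM + 1) of the list was 7.81 in BCAS replicate 2, the BCAS library lowest in Lgals3bp, and 4.55 in WD-Exos replicate 4, the library highest in it. The part of handling or RNA quality in this relation was not tested.

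Lists of microglial state showed no common direction. Homeostatic genes split evenly, with 10 of 20 positive and a median r of -0.01. Of 23 disease-associated genes 11 were positive (median -0.06), and of 19 inflammatory cytokine and NF-kB genes 7 were positive (median -0.18). Secretory pathway genes of the endoplasmic reticulum, through which the protein itself passes, had a median of 0.07 with 16 of 26 positive. Other genes with scavenger receptor cysteine-rich domains were scarce, and 2 of the 4 tested had a positive r.

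The binding partners of the protein had no common sign either: of 8 tested, 3 had a positive r, with a median of -0.13. Lgals3, the galectin after which the protein is named, stood at 17.12 CPM per kilobase in Sham, 16.22 in BCAS, 20.99 in ND-Exos and 28.3 in WD-Exos, well under the level of Lgals3bp in each group. Its r was 0.10. Lgals9, the most abundant galectin of the 3 described here, stood at 347, 568.8, 437.2 and 572 CPM per kilobase in the same order, above Lgals3bp in all groups but WD-Exos; its r was 0.40. Between BCAS and Sham its log2 fold change was 0.71 (SE 0.20, edgeR adjusted p = 0.356; DESeq2 adjusted p = 0.0134), and 5 of 6 BCAS libraries lay above every Sham library. Lgals1 stood at 49.45, 29.88, 33.59 and 19.55 CPM per kilobase, with r = -0.29. Ppic, which encodes cyclophilin C, had a count in 1 library only, at 0.038 CPM.

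Genes that vary with Lgals3bp between libraries can share the chance part of its group differences. The group levels of the 10 genes most like it were therefore not independent of its choice, though not used in choosing them. None passed edgeR's test between groups, where the share of all genes called was 0% in BCAS against Sham and in WD-Exos against BCAS, and 0.0196% in ND-Exos against BCAS and likewise for the 2 exosome groups against each other. The shares are over all 10219 tested genes, Lgals3bp among them. These comparisons share their BCAS or ND-Exos libraries. Between ND-Exos and BCAS all 10 had a negative log2 fold change, with a median of -0.86 (0.01 over all genes, smallest edgeR adjusted p = 0.577). That of Bcl2l1 was only -0.002 (SE 0.433), and without Sham replicate 5 the count was 9 of 10. Between WD-Exos and ND-Exos all 10 were higher, with a median of 0.85 (-0.01 over all genes; smallest edgeR adjusted p = 0.299). In BCAS against Sham 9 of 10 were higher (median 0.50), and in WD-Exos against BCAS 8 of 10 (median 0.17). The last was 5 of 10 (median -0.06) without WD-Exos replicate 6, and its median was 0.01 without WD-Exos replicate 4 and 0.06 without BCAS replicate 2. The numbers of genes with an unadjusted p below 0.05 were 617 for BCAS against Sham, 457 for ND-Exos against BCAS, 379 for WD-Exos against BCAS and 545 for the 2 exosome groups. DESeq2 called 205, 158, 119 and 127 in that order.

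Shisa5 had a lowest, median and highest value of 144.7, 311.1 and 392.2 CPM with ND-Exos and of 399, 512.6 and 742.8 with WD-Exos. The groups do not overlap, as for 0.294% of genes (log2 fold change 0.89, SE 0.22, edgeR adjusted p = 0.299; DESeq2 adjusted p = 0.00587). Bst2 had 54.22, 95.53 and 135 CPM with ND-Exos and 143.4, 193.2 and 451.6 with WD-Exos. It too was separate in every library (1.41, SE 0.36, edgeR adjusted p = 0.299; DESeq2 adjusted p = 0.00996). H2-T23 had 319.3, 365 and 458.7 CPM with ND-Exos and 356.8, 538.6 and 1516 with WD-Exos, and 4 of 6 WD-Exos libraries lay above every ND-Exos library (0.93, SE 0.29, edgeR adjusted p = 0.507). DESeq2 also called H2-D1 in ND-Exos against BCAS (adjusted p = 0.0027) and in BCAS against Sham (0.0266), neither of which edgeR called.

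**Figure D4:**
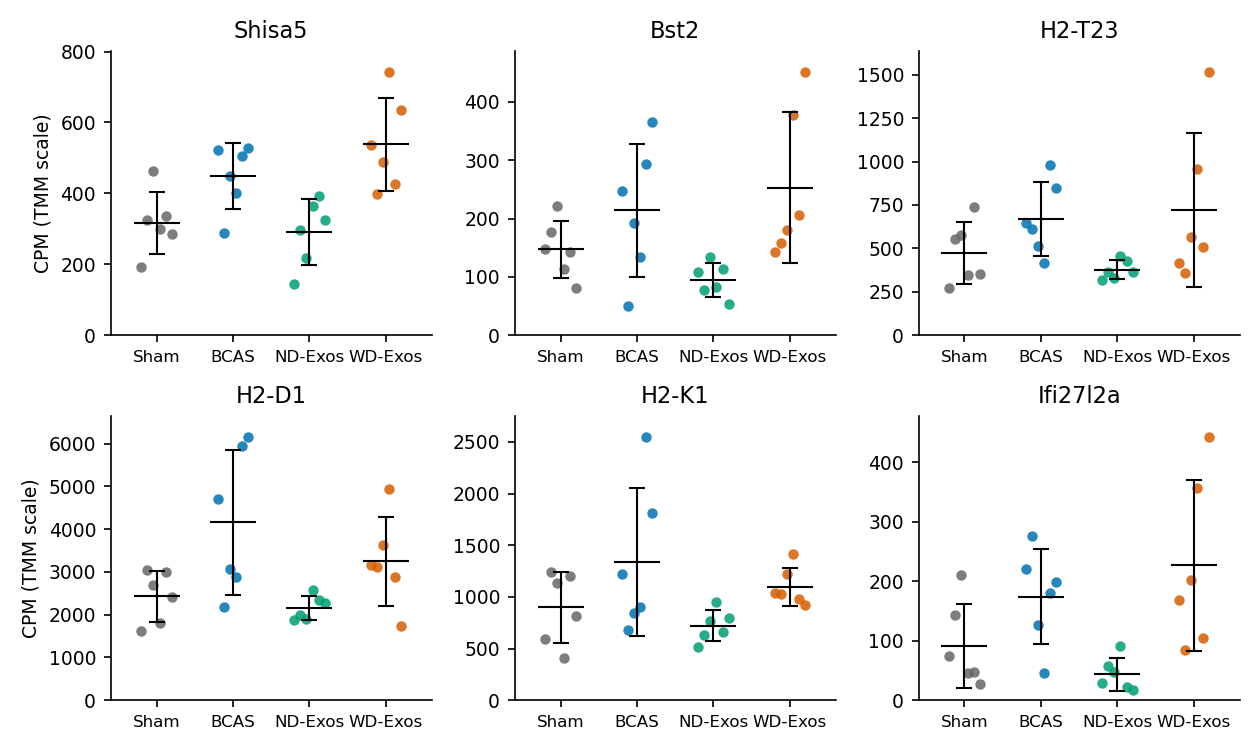
Level (CPM on the TMM scale, vertical axis, from 0) of 6 genes in each library (points), with the mean (long line) and SD (whiskers) of 6 libraries a group. Shisa5 and Bst2 are higher in every WD-Exos than in every ND-Exos library, while H2-D1 and H2-K1 have their highest mean in BCAS.

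Between WD-Exos and BCAS the class I genes were divided: 9 of 23 tested were higher with WD-Exos and 14 lower (median log2 fold change -0.09). H2-T23 had its highest mean with WD-Exos, as Lgals3bp did (719.9 CPM against 669.3 in BCAS), though not its highest median (538.6 against 628.4), and H2-D1, H2-K1 and B2m had theirs in BCAS. H2-D1 had 2174, 3885 and 6160 CPM (lowest, median, highest) in BCAS, 1881, 2123 and 2565 with ND-Exos and 1726, 3137 and 4936 with WD-Exos. Its mean was lower with WD-Exos than in BCAS (log2 fold change -0.36, SE 0.23, edgeR adjusted p = 1), while that of Lgals3bp was higher. H2-K1 (-0.28, SE 0.27) and B2m (-0.33, SE 0.16) were also lower with WD-Exos than in BCAS, both with an edgeR adjusted p of 1. Whether these differences from Lgals3bp exceed the spread was not tested.

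Most interferon-stimulated genes differed between groups in the directions of Lgals3bp, though not independently of its choice, since most had a positive r with it. Of 52 tested, 44 were higher in BCAS than in Sham (median log2 fold change 0.55), 44 were lower with ND-Exos than in BCAS (-0.83), 32 were higher with WD-Exos than in BCAS (0.25) and 46 were higher with WD-Exos than with ND-Exos (1.05). Without WD-Exos replicate 6, 22 of 52 were higher with WD-Exos than in BCAS (median -0.20). That median was 0.11 without WD-Exos replicate 4, and 0.07, 0.12 and 0.15 without BCAS replicates 2, 3 and 4, and without Sham replicate 3 that for BCAS against Sham was 0.83. Medians over all genes lay between -0.02 and 0.01, and no member passed edgeR's test in any of the 4 comparisons. Ifi27l2a had 16.63, 38.24 and 91.16 CPM with ND-Exos and 83.59, 185.7 and 443.2 with WD-Exos (2.37, SE 0.52, edgeR adjusted p = 0.254; DESeq2 adjusted p = 0.000112). Usp18 did not keep that order: its mean was 15.33 CPM in Sham and 4.20 in BCAS. Irf9, whose r within groups was near 0, was higher in every BCAS than in every Sham library (as for 0.127% of genes; log2 fold change 0.96, SE 0.27, edgeR adjusted p = 0.36; DESeq2 adjusted p = 0.0202). The immediate early and heat shock list, opposite to Lgals3bp within groups, was not opposite between groups when every library was kept. Of 24 genes, 19 were higher in BCAS than in Sham (median 1.32) and 20 with WD-Exos than with ND-Exos (1.20). With ND-Exos 18 were lower than in BCAS (-0.715), and with WD-Exos 15 were higher than in BCAS (0.385). These values depended on single libraries. Without BCAS replicate 2, 16 of 24 were higher in BCAS than in Sham (median 0.56). Without that library 18 of 24 were higher with ND-Exos than in BCAS (median 0.431), opposite to Lgals3bp. Without WD-Exos replicate 2, 16 of 24 were higher with WD-Exos than with ND-Exos (median 0.53). The median for WD-Exos against BCAS was then -0.169.

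Markers of other cell types and the depth of the libraries were set against Lgals3bp within groups, 18 measures in all. None passed a two-sided permutation test after Benjamini-Hochberg adjustment over the 18 (smallest adjusted p = 0.247, 24 libraries). The summed neutrophil markers gave Pearson's r = 0.53 (permutation p = 0.021, adjusted p = 0.247) and Spearman's rho = 0.37 (permutation p = 0.0974, adjusted p = 0.448). Without WD-Exos replicate 4 and BCAS replicate 2, r was 0.15, so the relation rests on those libraries. Of 14 neutrophil markers 6 had values; the sum was almost entirely Csf3r, the receptor of granulocyte colony-stimulating factor, at 148 to 676 CPM, while S100a8 and S100a9 did not exceed 0.83 CPM. The range of the sum was 179 to 328 CPM in Sham, 148 to 640 in BCAS, 197 to 425 in ND-Exos and 271 to 676 in WD-Exos. B cell markers gave r = -0.46 (permutation p = 0.0304, adjusted p = 0.247; rho = -0.39; r = -0.27 without the same libraries), with 5 of 9 markers measured and Ms4a1 at 0.11 CPM or less. Of the 5, Cd79b stood at 8.62 to 54.6 CPM (r = -0.56), and the other 4 had a median of 0 CPM.

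Endothelial markers gave r = 0.42 (permutation p = 0.0412, adjusted p = 0.247) and rho = 0.51 (permutation p = 0.0175, adjusted p = 0.315), with r = 0.39 without those libraries; the list holds Ly6a, itself among the genes most like Lgals3bp. Their sum ranged from 614 to 2230 CPM in Sham, 501 to 791 in BCAS, 490 to 769 in ND-Exos and 650 to 905 in WD-Exos. Bsg alone stood at 422 to 743 CPM (median 610). Of the 12 markers 7 had a median of 0 CPM, and the defining gene Cldn5 was at 0 in 19 of the 24 libraries. Some marker lists were also unequal between groups. Of 9 tested border macrophage markers, 9 were lower in BCAS than in Sham (median log2 fold change -1.25; -0.70 without Sham replicate 1) and 8 were lower with WD-Exos than with ND-Exos (-1.93), and their sum ranged from 325 to 1680 CPM in Sham, 73.8 to 602 in BCAS, 234 to 896 in ND-Exos and 137 to 321 in WD-Exos. Of 9 tested oligodendrocyte markers, 9 were lower in BCAS than in Sham (median -2.47; 1.28 without Sham replicate 4), 8 were higher with ND-Exos than in BCAS (1.95; -1.50 without ND-Exos replicate 3) and 8 with WD-Exos than in BCAS (2.16; -1.79 without WD-Exos replicate 6). Their sum ranged from 164 to 8750 CPM in Sham, 125 to 1370 in BCAS, 81.4 to 5050 in ND-Exos and 208 to 5980 in WD-Exos. None of these markers passed edgeR's test between groups. Within groups, border macrophage markers gave r = 0.15 (-0.16 without the same libraries), oligodendrocyte markers 0.14, monocyte markers 0.31, library total 0.25, genes with a count -0.18 and the TMM factor -0.24. The monocyte list holds Ms4a4c (r = 0.60), which is also on the interferon-stimulated list. Of the 8 monocyte markers with values, 6 had a median of 0 CPM. The part of these measures in the levels of Lgals3bp was not tested.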

How the data were processed

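The authors' deposited values are estimated counts by Entrez identifier for 24 libraries, made by Smart-seq2 from sorted microglia per the labels' protocols; the aligner, counting tool and build were not given in the sources used here. Of 22064 identifiers, 6186 were blank; 76.8% of the rest were whole numbers throughout. Counts were rounded and fitted with edgeR 4.0.16 (R 4.3.3): filterByExpr with a minimum of 10 counts (10219 genes), TMM (factors 0.936 to 1.175), 4 group means and robust quasi-likelihood tests. A second model added log2(CPM + 1) of Lgals3bp. Permutation tests drew 100000 shuffles within groups. Reads amplified without molecular identifiers are not independent molecules. Symbols and promoters came from RefSeq GRCm38.p6 (15828 of 15878 matched) and lengths from GENCODE vM21. The edgeR fits, for ND-Exos against BCAS and for the slope on Lgals3bp, were tested on simulated data. The outcome is not given here, and the other tests were not covered. The members and lists were chosen with earlier results of these data known. Named were 24 listed genes, the 10 with the highest and the 5 with the lowest r (1 of them is not reported here); Zfp444, Slfn5, Fos, Jun, Egr1 and single marker genes were named outside this rule after their values were seen. Alternatives used DESeq2 1.42.0 and limma 3.58.1, other filters, scalings and covariates, and left out libraries.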

Additional observations from a re-analysis of the deposited data

Results flagged for a closer look

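Among 35 genes in 4 groups (140 sets of 6 libraries), 10 had a library standing apart from the others by Dixon's test at the 95% level. Chance gives about 1 in 20 for normally distributed values. That rate does not apply to sets with most libraries at 0, such as Isg15 in ND-Exos, and sets with equal values throughout could not be flagged. Lgals3bp had none. The 10 held 3 galectin values: Lgals9 at 609.6 CPM in BCAS replicate 4 was the lowest of its group, and Lgals3 was at 0 CPM in Sham replicate 1 and in WD-Exos replicate 1. Among interferon targets, Rtp4 was lowest in ND-Exos replicate 2 (8.161 CPM). Among the ND-Exos libraries, Isg15 had a count in replicate 5 only (0.3983 CPM). Cxcl10 was highest in the same library of ND-Exos (19.77 CPM), and within Sham in replicate 1 (3.877 CPM). Of the factors downstream of the receptor, Stat2 was at 0 CPM in WD-Exos replicate 5 and Irf9 was lowest in Sham replicate 6 (21.66 CPM). Ppic had its single value in WD-Exos replicate 6 (0.03829 CPM).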

How the results depend on the processing

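Over the alternatives run for each, the 6 log2 fold changes of Lgals3bp between groups and the r of the 15 genes most and least like it kept their sign. For the fold changes of Lgals3bp these were edgeR fits only. Its values from DESeq2, from limma voom and from fits of only the 2 groups compared were not taken. Leaving out 1 library at a time gave 0.96 to 1.26 for BCAS against Sham, -1.94 to -1.62 for ND-Exos against BCAS, 0.12 to 0.56 for WD-Exos against BCAS, 1.89 to 2.34 for WD-Exos against ND-Exos, -0.84 to -0.57 for ND-Exos against Sham and 1.23 to 1.64 for WD-Exos against Sham. The median r of interferon-stimulated genes was 0.36 to 0.42 without 1 library and 0.33 to 0.43 under 6 other alternatives, chosen after seeing the data; that of immediate early and heat shock genes was -0.17 without WD-Exos replicate 4 and BCAS replicate 2, and -0.50 to -0.33 without 1 library. Counts of genes called by edgeR moved with the tool, and the cause was not tested. DESeq2 called 205 genes in BCAS against Sham, 158 in ND-Exos against BCAS, 119 in WD-Exos against BCAS, 127 in WD-Exos against ND-Exos and 26 for the slope on Lgals3bp, and voom with library weights called 9, 1, 1, 4 and 1 in that order. With genes with a count as a covariate ND-Exos against BCAS called 1, and with only the libraries of the 2 groups WD-Exos against ND-Exos called 1. Leaving out 1 library gave 0 to 32 for BCAS against Sham (32 without BCAS replicate 2), 1 to 3 for ND-Exos against BCAS (1 without BCAS replicate 5 or ND-Exos replicate 1, 2 or 6), 2 to 5 for WD-Exos against ND-Exos (5 without ND-Exos replicate 5 and 4 without BCAS replicate 2) and 0 to 1 for the slope (1 without WD-Exos replicate 6). The replicate numbers share no stated source, and none of 36 same-numbered pairs had r over 0.1; with the replicate number as a block, the median r of interferon-stimulated genes was 0.43, that of immediate early and heat shock genes -0.38, and the 5 counts of genes called were as without it (0, 2, 0, 2 and 0). Of 6328 recomputed values, 196 with no call changed sign. Lgals3 was at 0 in 3 libraries, and Isg15 and Cxcl10 in 12 and 15.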
